A study of Mus musculus with 59 samples.

Results

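The 10 libraries described here came from Myt1l heterozygous (HT) mouse pups that were exposed to fluoxetine, and they were selected and split on their measured level of Omp, a marker of olfactory sensory neurons. The 5 libraries with at least 100 normalized counts of Omp (females 1, 4 and 5 and males 1 and 3) form the high side, and the 5 under 50 (females 2 and 3 and males 2, 4 and 5) form the low side, out of 59 libraries in the series. The lowest library of the high side, female 5, had 154 and the highest of the low side, male 5, had 41.4. Because Omp chose the sides, every difference between them is a description without a test. Tests were made in the other 49 libraries, which the choice did not use.

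The olfactory bulb lies in front of the frontal cortex. Axons of olfactory sensory neurons enter it from the nose and end in glomeruli, where they contact mitral and tufted cells, the glutamatergic projection neurons of the bulb. Glomerular and granule interneurons, which use GABA and in part dopamine, shape this output, and new interneurons keep arriving as neuroblasts along the rostral migratory stream. Ensheathing glia wrap the incoming axons.

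All 59 libraries were made from tissue labelled prefrontal cortex of C57BL/6J mice at postnatal day 25. Pups of either genotype, heterozygous or wild type (WT) for the zinc finger transcription factor gene Myt1l, received fluoxetine (a serotonin reuptake inhibitor), lithium or vehicle through the mother's milk from postnatal day 3 to 24. The 12 groups of genotype, drug and sex held 5 libraries each, except WT fluoxetine females with 4, and litters are not given, so p-values measure the spread between these libraries. The type of Myt1l allele is not given in the sources used here, and the level of Myt1l did not mark it: the libraries labelled HT vehicle had 6189 to 8802 normalized counts and those labelled WT vehicle 6736 to 7612. In the HT fluoxetine libraries 26103373 to 33501570 reads were recovered, with 5.30 to 8.07% of them from mitochondrially encoded genes. Both sides held both sexes, 3 females and 2 males against 2 and 3.

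Values below are normalized counts and are listed in the order females 1, 4 and 5 and males 1 and 3 for the high side, then females 2 and 3 and males 2, 4 and 5 for the low side. Omp was 198, 739.8, 154, 534 and 173 on the high side. It was 5.14, 7.28, 26.1, 16.5 and 41.4 on the low side. The high values thus spanned a wide range, with female 4 and male 1 well above the other 3, and the low values formed a pair at 5.14 to 7.28 and 3 males above them. Omp encodes a cytosolic protein of mature olfactory sensory neurons, and its gene lies within an intron of Capn5 on the same strand (chr7:98143359-98145502, minus strand, GRCm38) without a shared exon. Capn5, a calpain protease gene, was 1519.9, 1337, 2022, 898 and 1271 in the high and 1885, 2074, 1795, 1886 and 1970.5 in the low libraries, so it did not follow Omp upwards.

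Eomes, a T-box transcription factor of mitral and tufted cells, was 586, 1611, 367, 2199 and 1373 on the high side. On the low side it was 2.05, 2.08, 141, 253 and 291. Tbx21, a related T-box factor restricted to these cells within the bulb, was 196, 516, 108, 822 and 585 and 4.11, 1.04, 45.8, 91.2 and 130.3, and Cdhr1, a cadherin-related gene of the same cells, was 2804, 8010.1, 2035, 11566 and 7675 and 296, 65.5, 1142, 1729.7 and 1785. Omp could not overlap, since it chose the sides. Of the other 3 markers Eomes and Cdhr1 did not overlap (4.86% of all measured genes were higher without overlap), but Tbx21 did, since female 5 had 108 and male 5 had 130.3. The low side was therefore not free of bulb transcripts: females 2 and 3 had 2 reads of Eomes each, while males 2, 4 and 5 had 141, 253 and 291 normalized counts. The means of Cdhr1 were 6418 ± 3965 on the high and 1004 ± 797 on the low side (SD, n = 5 each). A split on Cdhr1 in place of Omp gave the same 2 sides of 5, which only restates that Cdhr1 did not overlap. In bulk tissue, fewer cells of a type and less RNA per cell cannot be told apart.

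Among the other groups, the 10 HT vehicle libraries had 1.71 to 142 for Eomes and 27.8 to 1082 for Cdhr1. All 5 high libraries lay above that range for both genes, males 4 and 5 of the low side also lay above it, and females 2 and 3 lay inside it. The 10 HT lithium libraries reached 35.7 for Omp and the 10 WT vehicle libraries 34.2. Of the 9 WT fluoxetine libraries, 6 had at least 100 normalized counts of Omp (11.9 to 719 over all 9), while no vehicle or lithium library did (highest 92.1, in WT lithium).

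**Figure D1:**
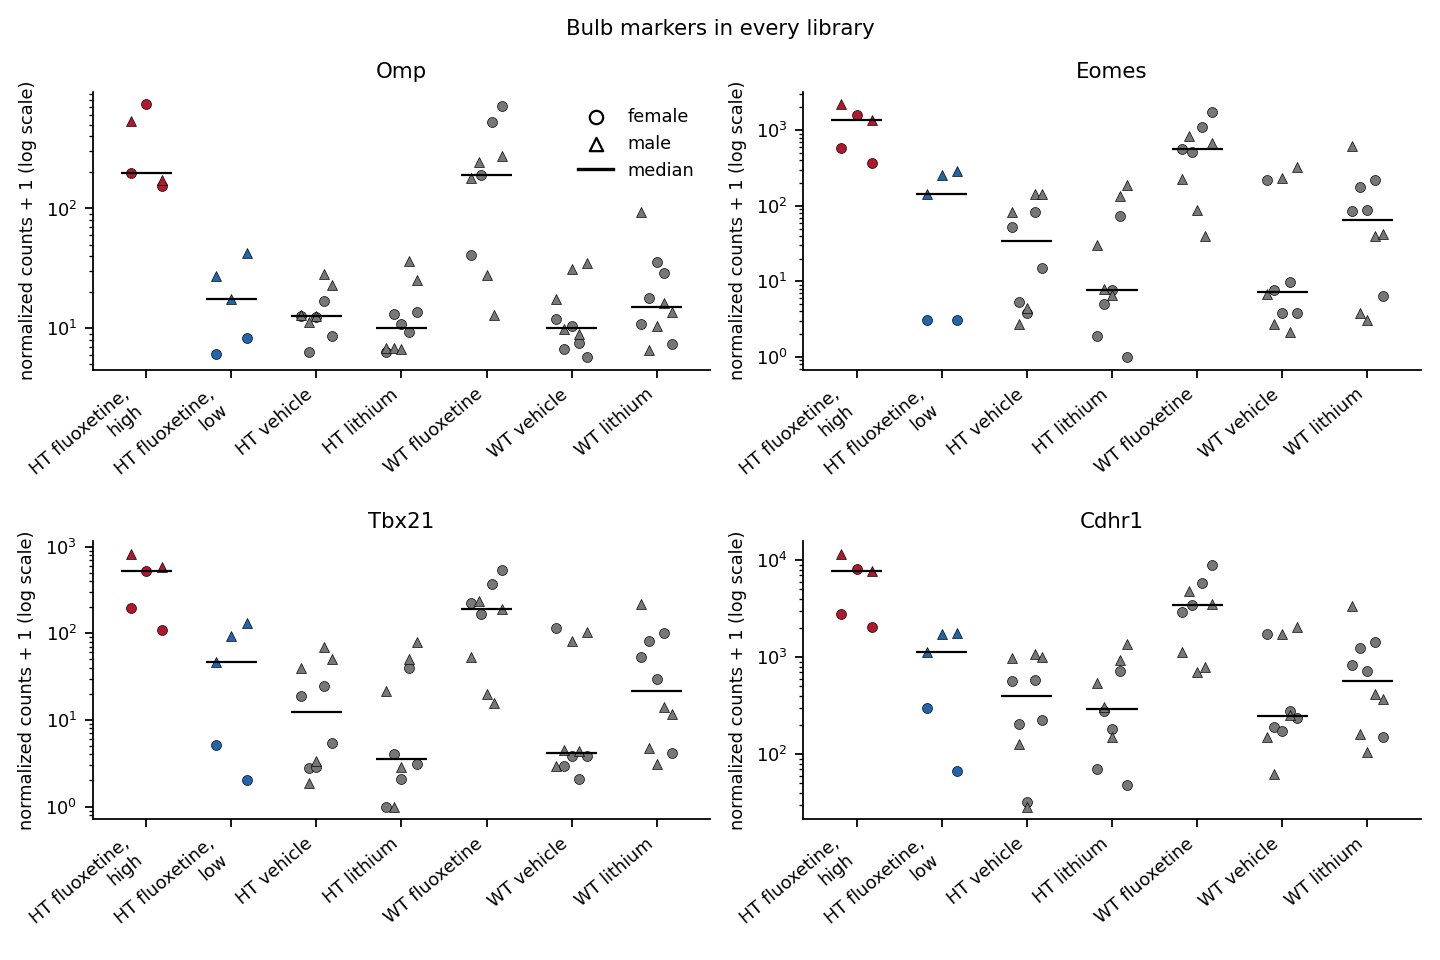
Normalized counts plus 1 (log axis) of Omp, Eomes, Tbx21 and Cdhr1 in every library, by group; circles are females, triangles males and bars the group medians, with the high side of HT fluoxetine in red and the low side in blue. The gap in Omp between 41.4 and 154 is not repeated in Tbx21, where the sides overlap.

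The region just upstream of the transcription start is shown for 4 of the 15 genes with the largest positive differences without overlap (S100a5, Eomes, Cdhr1 and Sfrp5). It is also shown for the marker Tbx21, whose sides overlapped, and for the sensory neuron gene Gfy, which both had positive differences too. The 110 bases before the start were read from RefSeq promoter windows (GRCm38.p6), 5′ to 3′ on the strand of the gene, and none overlapped an annotated exon. Capitals mark CCCNNGGG, the core letters of the palindrome bound by Ebf (Olf-1) transcription factors, which act in olfactory sensory neurons and elsewhere; the letters read the same on both strands.
S100a5 (chr3:90608412-90608521, plus strand): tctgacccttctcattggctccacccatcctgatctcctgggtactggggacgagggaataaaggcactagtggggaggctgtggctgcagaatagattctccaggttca
Gfy (chr7:45179598-45179707, minus strand): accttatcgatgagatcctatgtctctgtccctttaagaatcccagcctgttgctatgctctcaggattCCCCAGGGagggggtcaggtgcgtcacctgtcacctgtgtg
Eomes (chr9:118478079-118478188, plus strand): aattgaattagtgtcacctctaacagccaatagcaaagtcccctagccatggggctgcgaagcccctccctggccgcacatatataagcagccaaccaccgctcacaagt
Tbx21 (chr11:97115332-97115441, minus strand): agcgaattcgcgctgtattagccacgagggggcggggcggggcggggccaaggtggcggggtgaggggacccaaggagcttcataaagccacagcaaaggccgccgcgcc
Cdhr1 (chr14:37098348-37098457, minus strand): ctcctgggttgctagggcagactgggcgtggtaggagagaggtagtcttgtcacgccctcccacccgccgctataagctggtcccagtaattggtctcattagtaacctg
Sfrp5 (chr19:42202253-42202362, minus strand): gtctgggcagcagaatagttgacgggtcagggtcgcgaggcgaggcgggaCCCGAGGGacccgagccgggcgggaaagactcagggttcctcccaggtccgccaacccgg
In Gfy the match began 41 bases and in Sfrp5 60 bases before the start, and the other 4 stretches held none. Over the full RefSeq windows, 250 bases before to 50 after the start, 13.7% of all 32851 windows held the letters. By gene, 4159 of 27025 had such a window. Of the sensory axon genes 7 of 10 with a window held them (7 of 14 windows), and of the projection neuron genes 4 of 12 (4 of 13 windows). Of the glomerular interneuron genes 0 of 8 did (0 of 11 windows), and of the interneuron and granule cell genes 2 of 13 (2 of 17 windows). Such a match is a description of the letters only.

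To ask whether the genes that differed between the sides also followed Omp elsewhere, the slope of each gene's log2 level on the log2 level of Omp was estimated in the 49 libraries outside HT fluoxetine, within their 10 groups. The slope is the log2 change per doubling of Omp plus 1, and limma's test with Benjamini-Hochberg adjustment at 0.05 called 1220 genes rising (7.38% of 16527 tested) and 1071 falling (6.48%). These calls rested largely on the WT fluoxetine libraries: the vehicle and lithium libraries alone gave 301 rising and 30 falling genes, and without WT fluoxetine female 4 the counts were 845 and 515, without WT fluoxetine male 2 they were 912 and 648. In the HT fluoxetine libraries, 16603 genes had a mean of at least 10, and 807 of them (4.86%) were higher and 812 (4.89%) lower in all 5 high than in all 5 low libraries. With a 2-fold difference in addition, 181 (1.09%) were higher and 13 (0.0783%) lower. Without female 5 these became 365 and 66. The count of lower genes was 24 without female 1, 32 without female 3 and 22 without male 5.

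No gene that separated the sides was called in the opposite direction in the 49 libraries. Of the 181 genes at least 2-fold higher without overlap, 156 were tested in the 49 libraries and 142 of those (91.0%) rose with Omp, against the 7.38% of all tested genes. Of the 807 higher genes, 355 of 777 tested rose (45.7%) and 0 fell; of the 812 lower genes, 221 of 811 fell (27.3%) and 0 rose. The opposite direction held 0 genes in both sets also at an unadjusted p under 0.05, by limma, and with edgeR, which called 361 and 225 in the same direction. Among the 14786 tested genes whose sides overlapped, 5.85% rose and 5.75% fell. Read from the other set, 29.1% of the 1220 rising genes were higher without overlap in HT fluoxetine and 99.2% had a positive difference, and 20.6% of the 1071 falling genes were lower without overlap and 98.5% had a negative one.

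**Figure D2:**
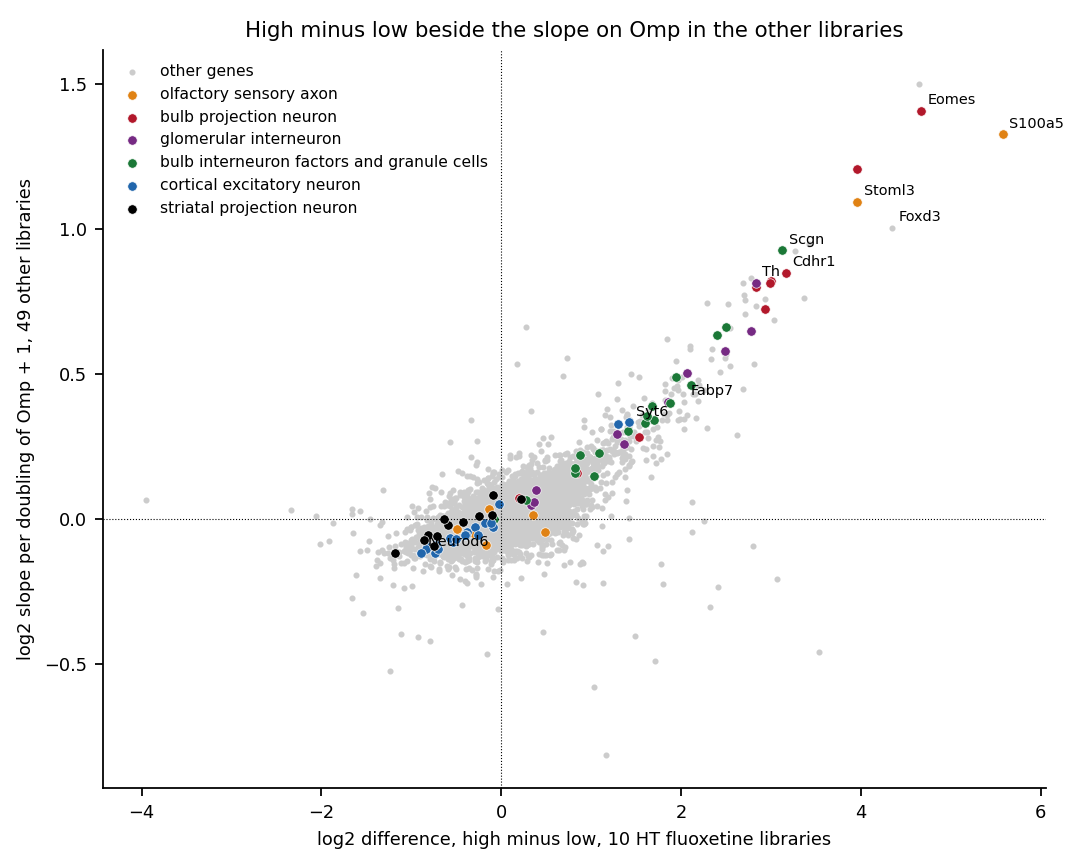
Each point is a gene, with its log2 difference between the high and low sides of HT fluoxetine on the horizontal axis and its log2 slope on Omp in the 49 other libraries on the vertical axis; colours mark 6 marker lists and some genes are named. Bulb genes lie along the upper right, with Eomes at 4.67 and 1.41, and most cortical excitatory genes lie just below 0 on both axes, Syt6 (1.43 and 0.33) being an exception.

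Among the named genes the widest difference was that of S100a5, a gene of the sensory axon list. The projection neuron gene Eomes (4.67 log2) lay between it and the sensory gene Stoml3. S100a5, a calcium-binding protein of olfactory sensory neurons, was 105, 335, 53.5, 354 and 83.2 in the high libraries. It was 0, 0, 7.47, 1.74 and 8.99 in the low ones. That is a log2 difference of 5.58 with females 2 and 3 at 0, the largest of the genes named here. S100a5 passed the mean filter through the high side alone, since all 5 low values were under 10. Stoml3, a stomatin-like membrane protein of sensory neurons, was 32.1, 289.6, 36.4, 136 and 24.9 against 0, 0, 11.2, 8.69 and 10.8 (3.96 log2). In the 49 other libraries S100a5 rose with a slope of 1.33 ± 0.106 (SE, n = 49; adjusted p = 2.17e-12) and Stoml3 with 1.10 ± 0.106 (SE, n = 49; adjusted p = 7.94e-10). There too S100a5 passed the mean filter only through libraries with high Omp, those of WT fluoxetine. Its mean was 176 in WT fluoxetine females and 73.5 in males, against 0.212 to 7.87 in the vehicle and lithium groups.

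The other sensory genes did not all follow. Gfy, a Golgi protein of olfactory sensory neurons, was 18.8, 35.3, 17.1, 25.8 and 13.3 against 10.3, 10.4, 9.34, 8.69 and 8.09 without overlap. Its mean in the 49 other libraries was under 10, so it was not tested there. Gng13, a G protein subunit that other neurons also express, was 552, 624, 553, 489 and 362 against 324, 439, 388, 363 and 496, which overlapped. Adcy3, the adenylyl cyclase of olfactory transduction, was 1494, 1172, 1813, 789 and 1208 against 1748, 1677, 1983, 1701 and 1656, a log2 difference of -0.49 in the opposite direction. Of the list of 12 sensory axon genes, 11 were in the table and 10 had a mean of at least 10; Omp, which chose the sides, is 1 of these. Of the other 9, 3 were higher without overlap, S100a5 among them, and 0 lower (4.86% and 4.89% of all genes). Their median log2 difference was 0.35 against 0.01 for all genes. In the 49 libraries 2 of 8 tested rose and 0 fell (7.38% and 6.48% of all genes). The cyclic nucleotide-gated channel gene Cnga2 (5.14 to 21.4 in the 10 libraries) had a mean under 10. None of 9 genes of the non-neuronal nasal epithelium was in the table.

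Genes of the bulb's projection neurons had the largest median difference of the marker lists. All 12 measured genes had a positive difference, 6 without overlap (4.86% of all genes were higher without overlap), with a median of 2.89 log2, and 9 of 10 tested rose with Omp in the other libraries (7.38% of all genes did), 0 fell. Eomes differed by 4.67 log2, with a slope of 1.41 ± 0.256 (SE, n = 49; adjusted p = 0.000166). Cdhr1 differed by 3.17 log2, with a slope of 0.85 ± 0.186 (SE, n = 49; adjusted p = 0.00153). Tbx21, whose sides overlapped, had a slope of 1.21 ± 0.223 (SE, n = 49; adjusted p = 0.000194), so the gene that missed the split by 1 pair of libraries still followed Omp elsewhere.

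Doc2g, a gene of the double C2-domain family, was 2007, 4757, 1326, 7063 and 4101 on the high side. On the low side it was 150.0, 104, 686, 899 and 1145, an 8.0-fold difference without overlap. Male 1 was highest and females 2 and 3 lowest, as for Cdhr1. Nmb, which encodes the peptide neuromedin B, was 218, 449, 126, 658 and 353 against 12.3, 13.5, 57.9, 90.4 and 106. Shisa3, an antagonist of Wnt and FGF receptor maturation, was 394, 1116, 288, 1714 and 973 against 22.6, 41.6, 156, 179 and 234. These 3 genes all rose in the 49 libraries, with slopes of 0.82, 0.72 and 0.81 and adjusted p-values of 9.95e-06, 1.43e-07 and 4.50e-06. Reln, the extracellular matrix protein that cortical neurons of the outermost layer and interneurons also make, differed less (0.84 log2, overlapping) and rose with a slope of 0.16 ± 0.0280 (SE, n = 49; adjusted p = 8.28e-05). Slc17a6, the vesicular glutamate transporter VGLUT2, which is not particular to the bulb, was 612 to 994 and 577 to 805 and was not called (adjusted p = 0.407).

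Interneuron genes of the glomerular layer were higher too. Th, tyrosine hydroxylase, the rate-limiting enzyme of dopamine synthesis, was 914, 2185, 579, 3087 and 1894 on the high side. It was 109.9, 33.3, 375, 453 and 573 on the low side, so male 5 with 573 and female 5 with 579 nearly met. Calb2, the calcium-binding protein calretinin, was 3517, 7278, 2298, 11088 and 7499 against 492, 316, 1294, 1955 and 2227. Trh, the thyrotropin-releasing hormone precursor, was 326, 719, 273, 1086 and 681 against 45.2, 22.9, 122, 124 and 184. Both genes separated the sides, with male 1 highest and female 3 lowest. Slopes in the 49 libraries were 0.81 ± 0.127 (SE, n = 49; adjusted p = 1.77e-05) for Th, 0.58 ± 0.108 (SE, n = 49; adjusted p = 0.000224) for Calb2 and 0.65 ± 0.0932 (SE, n = 49; adjusted p = 3.43e-06) for Trh. Of the 10 genes of the list, all had a positive difference, 4 without overlap, with a median of 1.61 log2; 7 of 10 rose and 0 fell. Over all genes 4.86% were higher without overlap and 7.38% rose. Ddc and Gch1, which encode the next enzyme of the dopamine pathway and an enzyme that makes its cofactor, differed by only 0.37 and 0.39 log2 with overlapping sides and were not called (adjusted p = 0.451 and 0.0768).

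The list of bulb interneuron factors and granule cell genes rose almost as a whole in the other libraries, 16 of 18 with 0 falling, and 8 of 18 were higher without overlap in HT fluoxetine (median 1.61 log2). The shares of all genes were 7.38% rising and 4.86% higher without overlap. Its homeobox genes Dlx1, Dlx2, Dlx5 and Dlx6, which specify forebrain GABA neurons, differed by 1.88, 1.70, 1.60 and 1.09 log2, all without overlap. Dlx1 was 3082, 5756, 2099, 7669 and 5897 against 812, 575, 1484, 1778 and 2017. Sp9, a zinc finger factor of interneuron precursors, was 549, 845, 365, 1427 and 1161 against 113, 57.2, 314, 281 and 320.0. Scgn, the calcium-binding protein secretagogin, had the widest difference of the list, 3.13 log2, yet it overlapped: 180.2, 386, 132, 622 and 436 against 4.11, 5.20, 82.2, 121 and 153. Gad2, a GABA-synthesizing enzyme of all GABA neurons, differed by 0.28 log2 with overlap and rose with a shallow slope of 0.06 ± 0.0137 (SE, n = 49; adjusted p = 0.000896). Tpbg, a leucine-rich repeat membrane protein of granule cells, was the exception, with -0.08 log2 and no call (adjusted p = 0.990), and Prokr2, the prokineticin receptor, was not called either (1.63 log2; adjusted p = 0.104).

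Per library, the bulb lists were graded, with no gap at the Omp limit in the projection neuron and interneuron genes. The geometric mean (of normalized counts plus 1) of the projection neuron list was highest in male 1, and relative to it the list stood at 75.2% in male 3, 74.5% in female 4, 32.6% in female 1 and 23.6% in female 5. On the low side it was 22.3% in male 5, 20.5% in male 4, 12.3% in male 2, 3.66% in female 2 and 2.65% in female 3. Female 5 and male 5, the 2 libraries on either side of the Omp limit, thus differed little in this list. In the interneuron and granule cell list female 5 stood at 32.8% and male 5 at 34.0%, the reverse order. In the glomerular list they stood at 32.2% and 29.6%, and in the sensory axon list, which holds Omp, they were further apart, at 60.03% and 31.6%.

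The sensory axon genes and the projection neuron genes did not peak in the same library. Female 4 had the highest mean of the sensory axon list, with 5 of its 10 genes highest there, and male 1 stood at 69.8% of it. Male 1 held the highest value of 9 of 12 projection neuron genes, 9 of 10 glomerular genes and 17 of 18 interneuron and granule cell genes. The count of Omp per count of Eomes was 0.459 in female 4, 0.420 in female 5 and 0.338 in female 1, and in the males it ran from 0.0653 (male 4) to 0.243 (male 1). The 3 female values were all above the 5 male ones, but these females were all of the high side and males 2, 4 and 5 of the low side. Sex and side are thus mixed in this order. Tbx21 per Eomes varied less over the same 8 libraries, from 0.294 to 0.448. Females 2 and 3, with 2 reads of Eomes each, give no usable ratio. In WT fluoxetine this ratio did not separate the sexes, through the 2 libraries at its ends among the 9. Female 1 was lowest, with 39.6 counts of Omp and 570 of Eomes, and male 1 highest, with 178 and 226. Females 2, 3 and 4 had 190, 524 and 719 of Omp and 513, 1088 and 1718 of Eomes. Males 2, 3, 4 and 5 had 245, 26.6, 11.9 and 274 of Omp and 826, 86.5, 38.6 and 684 of Eomes. These ratios include the gene that chose the sides and were not tested.

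**Figure D3:**
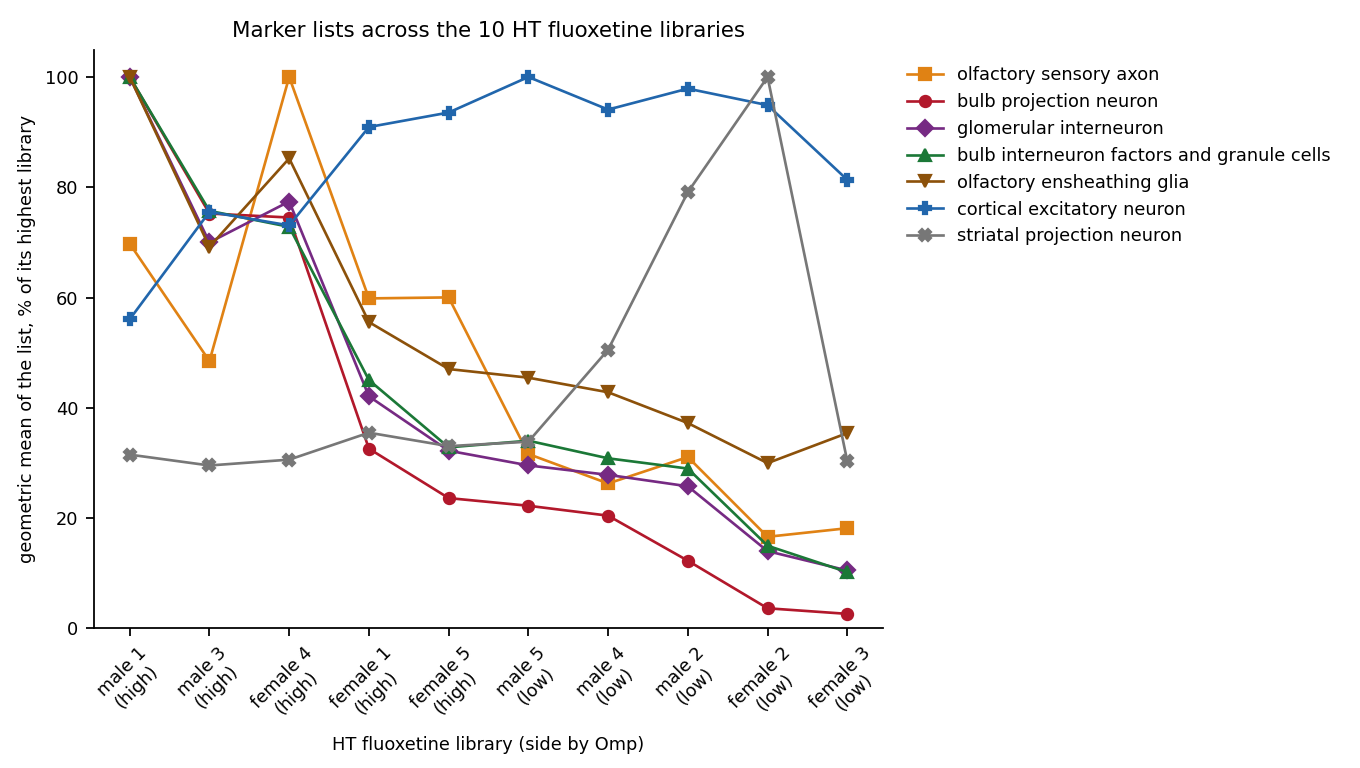
Geometric mean of 7 marker lists in each HT fluoxetine library, as a percentage of the list's highest library, with libraries ordered by the projection neuron list and the side by Omp in brackets. The bulb lists decline from male 1 to female 3, the sensory axon list peaks in female 4, the cortical excitatory list is lowest in male 1 (56.1%), and the striatal list is high in female 2 and males 2 and 4 of the low side.

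Genes of migrating neuroblasts lay between. Of 12 genes 10 had a positive difference, but none separated the sides, and the median was 0.70 log2. Dcx, the microtubule protein doublecortin, was 3995, 9969.6, 3507, 11947 and 10454 on the high side. It was 2232, 2008, 3127, 3876 and 3776 on the low side, with female 5 under males 4 and 5. Elsewhere 4 of 12 rose (7.38% of all genes), among them Dcx (slope 0.29, SE 0.0573, adjusted p = 0.000517), and 1 fell: Stmn1, which encodes the microtubule regulator stathmin (slope -0.05, SE 0.0106, adjusted p = 0.00192), which is near the 6.48% of all genes that fell. Genes of dividing cells showed no such pattern, with a median of 0.03 log2, 0 of 10 without overlap and 0 of 10 called by limma (0 also at an unadjusted p under 0.05) or edgeR.

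Ensheathing glia genes were higher, with 5 of 8 separating the sides (4.86% of all genes did so in this direction) and a median of 0.78 log2. Fabp7, a brain lipid-binding protein of ensheathing glia and radial glia, was 2922, 7322, 2279, 7966 and 4454 on the high side. On the low side it was 864, 813, 1114, 1370.0 and 1404. Prss56, a serine protease gene, was 56.4, 78.9, 44.9, 127 and 113 against 7.19, 15.6, 20.5, 22.6 and 33.3, and Frzb, a secreted Wnt antagonist, was 1084, 1819, 1061, 1935 and 1341 against 669.7, 797, 798, 902 and 907. Outside HT fluoxetine 5 of 8 rose (7.38% of all genes) and 0 fell, Fabp7 with a slope of 0.40 ± 0.0464 (SE, n = 49; adjusted p = 5.70e-08). Npy, a neuropeptide that cortical interneurons also make, differed by 0.09 log2 and was not called (adjusted p = 0.808).

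Of the 15 genes with the largest positive differences without overlap, 7 belonged to none of the bulb lists named so far. Foxd3, a forkhead factor of neural crest derivatives, was 23.2, 105, 34.2, 166 and 81.5 on the high side and 0, 0, 2.80, 5.21 and 14.4 on the low. Frmd7, a FERM domain gene known from inherited nystagmus, was 535, 1346, 368, 2002 and 1324 and 25.7, 12.5, 197, 269 and 259. Dnah11, an axonemal dynein heavy chain, was 187, 491, 119.8, 647 and 433 and 8.22, 5.20, 76.6, 83.4 and 98.9. Both of the last 2 followed the order of the projection neuron genes, with male 1 highest and females 2 and 3 lowest. Sfrp5, a secreted Wnt antagonist, peaked more sharply in male 1 (18.8, 65.0, 23.5, 145 and 16.6 against 3.08, 1.04, 4.67, 2.61 and 2.70). Kcnk15, a tandem-pore potassium channel gene, was 28.7, 68.7, 22.5, 95.0 and 69.0 against 3.08, 0, 7.47, 8.69 and 8.99. Like S100a5, Sfrp5 and Kcnk15 passed the mean filter through the high side alone, with all 5 low values under 10. Nppa, the atrial natriuretic peptide precursor, was 63.0, 190.3, 47.1, 186 and 134 against 4.11, 2.08, 28.0, 27.8 and 43.1, and Klhl30, a kelch-like gene, differed by 3.03 log2. Of the 15, 12 were tested in the 49 libraries and all 12 rose (7.38% of all genes rose), with slopes from 0.69 (Klhl30) to 1.41 (Eomes). The limit that the mean filter sets on such a share, given above, holds here too. In WT fluoxetine libraries alone 4 of the 12 were no longer called (Cdhr1, Doc2g, Eomes and Frmd7). In vehicle and lithium libraries alone none of those tested there lost its call.

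**Figure D4:**
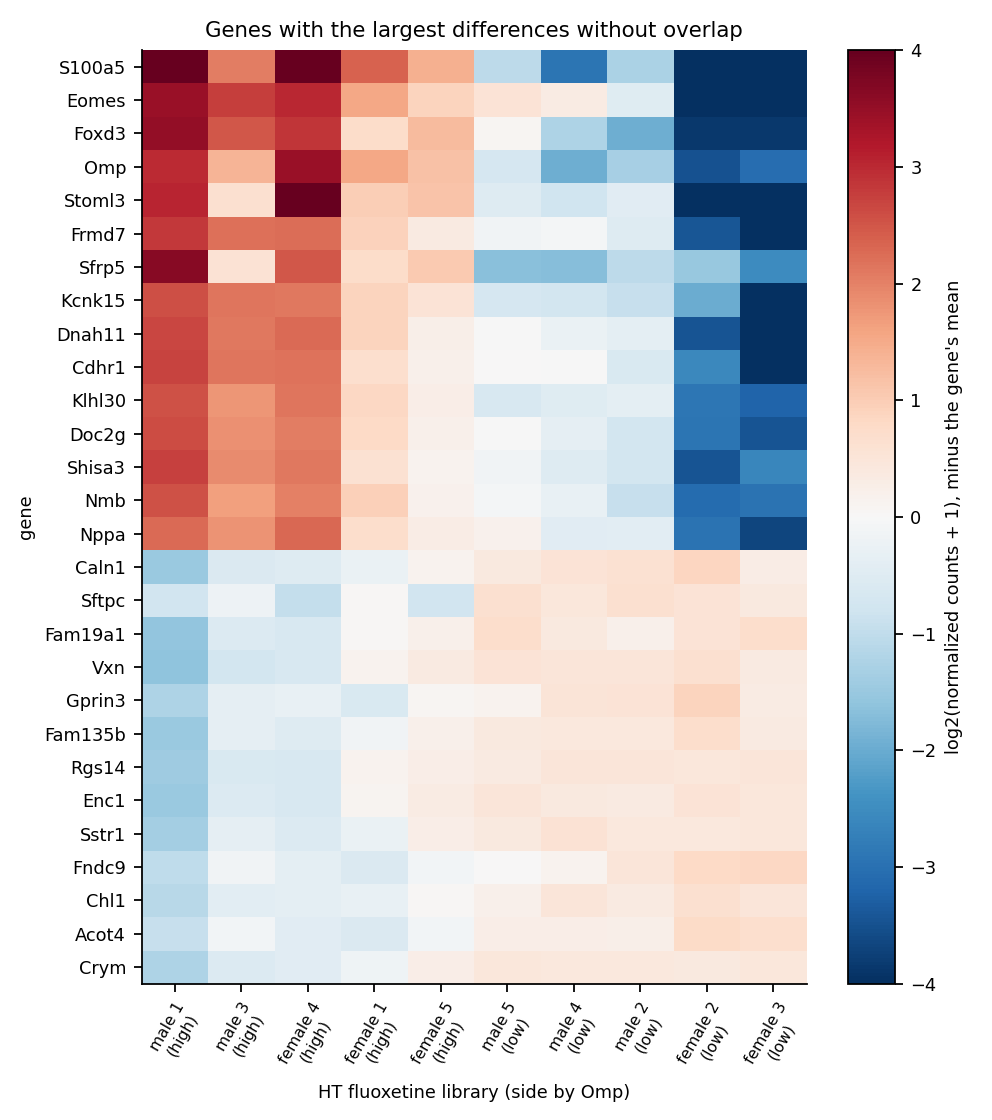
Log2 of normalized counts plus 1, relative to each gene's mean over the 10 HT fluoxetine libraries, for the 15 genes with the largest positive and 13 of the 15 with the largest negative differences among genes without overlap; columns follow the projection neuron list. Females 2 and 3 are mostly deepest blue in the upper block and male 1 in the lower, where differences are smaller (from -1.08 to -0.87 log2).

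Among the genes picked for the largest differences without overlap, those lower on the high side differed by less. Some other genes were lower by more. The lowest difference over all genes was -3.95 log2, and in the striatal list, whose sides overlapped, it was -3.21 log2. The picked genes reported here ran from -1.08 log2 (Caln1, the calcium sensor calneuron) to -0.87 (Crym, a thyroid hormone-binding protein of cortical neurons). Caln1 was 4099.8, 3444, 5458, 1772 and 3338 on the high side and 8919, 6034, 7525, 7232 and 6544 on the low, a 2.11-fold difference. Enc1, an actin-binding protein of cortical neurons, was 17804, 10457, 20769, 5845 and 11326 and 23989.7, 22751, 21227, 21504 and 22899.7. Rgs14, a regulator of G protein signalling, was 1279, 741, 1389, 432 and 764 and 1582, 1625, 1624, 1637 and 1500.3. In each of these male 1 was the lowest library and females 1 and 5 had the highest values of the high side. Of the 15 lowest genes, 12 fell with Omp in the 49 libraries (6.48% of all genes did), Caln1 with -0.11 ± 0.0257 (SE, n = 49; adjusted p = 0.00201). Sftpc and Fndc9 were among those not called (adjusted p = 0.226 and 0.686). Several of these calls were near the threshold: without WT fluoxetine female 4, 8 of the 12 were no longer called, and the same number without WT fluoxetine male 2. With Cdhr1 in place of Omp, 7 of the 12 were no longer called. The slopes of 4 others (Chl1, Crym, Rgs14 and Fam19a1) were then above 0, so these were not called falling either. With the mean level of the 4 markers in place of Omp, 11 of the 12 were no longer called. In vehicle and lithium libraries alone none of the 12 was called.

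Cortical excitatory neuron genes were present at high levels in all 10 libraries and modestly lower where bulb genes were highest. Slc17a7, the vesicular glutamate transporter VGLUT1, was 44612, 33074, 52547, 25586 and 36789 on the high side. It was 50436, 52096, 54056, 52132 and 55509 on the low side. Female 5 overlapped the low side, while male 1 had the lowest value of all 10. Neurod6, a basic helix-loop-helix factor of cortical projection neurons, was 2524, 1543, 2940.1, 817 and 1639 and 3228, 3895, 2761, 2889 and 3338, and Fezf2, a factor of deep-layer neurons, was 850.0, 406, 844, 215 and 472 and 859, 719, 844, 800.1 and 926. Of the 20 genes, 18 had a negative difference (median -0.40 log2), 1 was lower without overlap (Bhlhe22, -0.57 log2) and 1 higher (Syt6, 1.43 log2), near the 4.89% and 4.86% of all genes. In the 49 libraries 10 of 20 fell (6.48% of all genes did), Slc17a7 with -0.07 ± 0.0146 (SE, n = 49; adjusted p = 0.000649) and Neurod6 with -0.12 ± 0.0302 (SE, n = 49; adjusted p = 0.00652), and Syt6, a synaptotagmin, rose (slope 0.33, SE 0.050, adjusted p = 8.32e-06).

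Among cortical interneuron genes, Lhx6, a LIM homeobox factor of interneurons from the medial ganglionic eminence, was 508, 252, 524, 119.9 and 279 on the high side and 602, 453, 592, 463 and 544 on the low and fell with Omp (slope -0.12, SE 0.0236, adjusted p = 0.000562), as did Sst, somatostatin (-0.82 log2; slope -0.10, SE 0.0263, adjusted p = 0.00547). Adarb2, an RNA-editing family gene of caudal interneurons, was 924, 1672, 884, 2187 and 1694 against 608, 779, 834, 943 and 855 and rose (slope 0.14, SE 0.0228, adjusted p = 2.11e-05). The whole list had a median of -0.20 log2, and 1 of 10 was lower without overlap (Prox1, -0.24 log2), against 4.89% of all genes. In the 49 libraries 1 of 10 rose and 2 fell, against 7.38% and 6.48% of all genes.

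**Figure D5:**
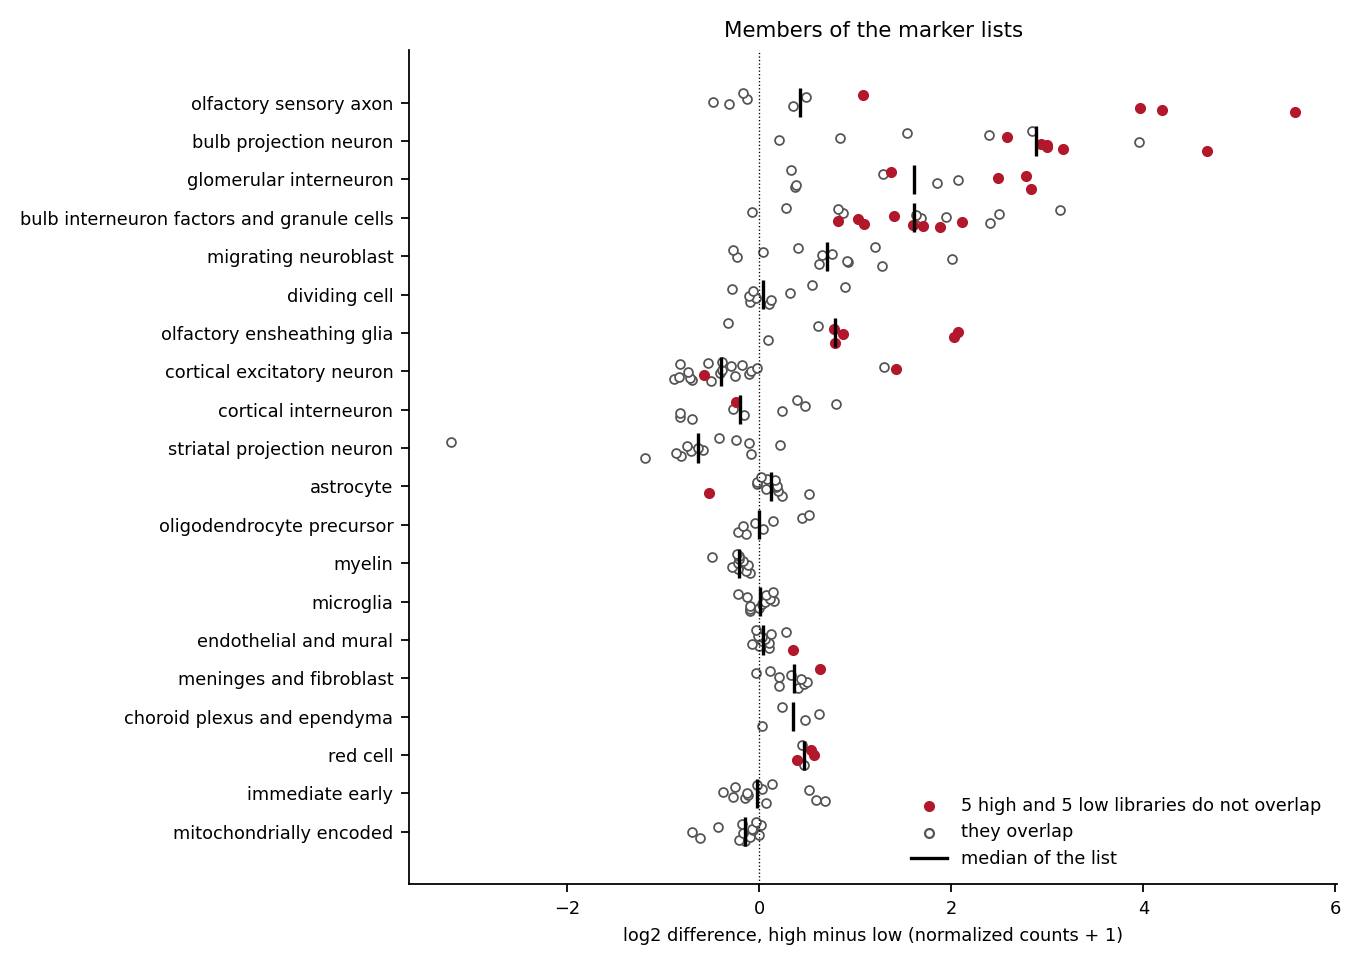
Log2 difference between the high and low sides for each measured member of 20 marker lists; filled points are genes whose sides do not overlap, open points overlap, and the black bar is the list's median. The medians of the projection neuron (2.89), glomerular (1.61) and interneuron and granule cell (1.61) lists stand to the right, and the cortical excitatory (-0.40) and striatal (-0.64) ones to the left of 0.

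Markers of other tissues also differed between the sides. Striatal projection neuron genes were lower on the high side (median -0.64 log2, 0 of 13 without overlap, 0 of 12 called in the 49 libraries), and this followed 3 libraries of the low side: the list was highest in female 2, and relative to that it stood at 79.1% in male 2, 50.5% in male 4 and between 29.6% and 35.5% in the other 7. With an unadjusted p under 0.05 limma gave 1 rising and 2 falling genes of this list, and edgeR called 0 of 12. Drd1, the dopamine D1 receptor, was 165, 116, 202, 77.5 and 111 against 525, 142, 376, 295 and 249. Six3, a homeobox gene of striatal precursors, was 1.11, 0, 0, 0.922 and 0 against 77.0, 2.08, 44.8, 12.2 and 0.899. The part of these 3 libraries in the other differences was not tested, except that without female 2 and male 2 the genes at least 2-fold apart without overlap numbered 211 higher and 20 lower. In the 49 libraries the striatal level as a second covariate gave 1340 rising and 1295 falling genes.

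Red cell genes, hemoglobins and a heme enzyme, summed to 12932 to 16932 on the high and 7982 to 11769 on the low side, without overlap. All 5 had a positive difference (median 0.47 log2), 3 without overlap (4.86% of all genes), but 0 of 5 were called in the 49 libraries by limma (0 also at an unadjusted p under 0.05) or edgeR. The alpha globin gene Hba-a1 was 4008, 3258, 3629, 3126 and 2957 against 2297, 2542, 1804, 2548 and 2287; its near-identical copy Hba-a2 can share reads with it, so each value is uncertain. Meningeal and fibroblast genes had a median of 0.36 log2, 1 of 10 without overlap, near the 4.86% of all genes, and 3 of 10 rising (7.38% of all genes), among them Bgn, the proteoglycan biglycan (640.0, 1263, 622, 1234 and 680.2 against 555, 561, 545, 545 and 504; slope 0.15, SE 0.0232, adjusted p = 5.97e-06). Their part in the result was not tested.

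The remaining lists had medians nearer 0. Medians were 0.12 log2 for 12 astrocyte genes, -0.01 for 8 of oligodendrocyte precursors, -0.22 for 11 of myelin, 0.01 for 12 of microglia, 0.04 for 12 of vessels and 0.35 for 4 of choroid plexus and ependyma. Of these 59 genes, Slc1a2 (the astrocyte glutamate transporter, -0.52 log2) was lower and Cldn5 (an endothelial tight junction protein, 0.35) higher without overlap. Over all genes 4.89% were lower and 4.86% higher. In the 49 libraries 2 of 12 astrocyte, 1 of 8 precursor and 1 of 4 choroid plexus and ependyma genes rose (7.38% of all genes). Immediate early genes had a median of -0.03 with 0 of 13 without overlap. Of these 13, 3 rose with Omp in the 49 libraries (7.38% of all genes): Fosb, Fosl2 and Npas4 (Npas4, slope 0.21, SE 0.0522, adjusted p = 0.00486). Mitochondrially encoded genes had a median of -0.15, which was 0 after quantile normalization, and 0 of 13 separated the sides.

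Myt1l itself differed between the sides. It was 7375, 7775, 8868, 6615 and 7491 on the high side and 10162, 9207, 9424, 9619 and 9144 on the low, a log2 difference of -0.32 without overlap, which shrank to -0.13 after quantile normalization. Outside HT fluoxetine it was not called (slope -0.03, SE 0.0160, adjusted p = 0.210). All 10 values lay within or above the 6189 to 8802 of the 10 HT vehicle libraries.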

How the data were processed

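RNA came from tissue labelled prefrontal cortex, and whether each library is 1 pup is not given in the sources used here. The labels' protocols name a stranded TruSeq kit for messenger RNA, and whether counting used strand is not given in the sources used here. Per the submitters' processing notes the tools were Salmon 0.11.2, R 3.6.0 and DESeq2 1.19.11, on GRCm38. The deposited values are a normalized signal per gene, the authors' read counts divided by a size factor of each library as the steps of their values show, called normalized counts. Dividing each library by its smallest step gave whole reads for 100% of its values (tolerance 0.01) and totals of 25088446 to 35858365 reads; in 9 libraries with size factors close to 1, whole reads are harder to tell from rounding. Of 18088 genes, 4 were at 0 everywhere, and 18077 identifiers had a symbol.

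The sides followed the Omp limits of 100 and 50. In the 10 libraries, genes averaging 10 or more were compared as log2(value + 1), so differences of low genes are understated; a gene separated the sides when all 5 high values lay above, or below, all 5 low ones. In the other 49 libraries limma 3.58.1 (R 4.3.3, trended and robust prior) fitted 10 group means and a two-sided slope on log2(Omp + 1) for 16527 genes, Omp left out, with Benjamini-Hochberg adjustment. Named genes were the 15 highest and 15 lowest without overlap (predicted genes, RIKEN clones and pseudogenes left out; 2 of the lowest are not reported here), the 4 markers, members of 21 marker lists and Myt1l; Capn5 was added for its position. The members and lists were chosen with earlier results of these data known. Alternatives were pseudocounts of 0.5 and 5, no filter, a filter at 200, quantile normalization, other covariates, subsets of libraries, a replicate block and, chosen after the data were seen, edgeR 4.0.16 on the recovered reads and the contrast without 3 low males. Scripts were checked on simulated data. Promoter windows and gene models came from RefSeq (GRCm38.p6) and GENCODE.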

Additional observations from a re-analysis of the deposited data

Results flagged for a closer look

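Omp in HT fluoxetine female 4, at 739.8 normalized counts, stood apart from the other 4 females of its group, of which the nearest had 198. The gap to that library was 0.738 of the whole range of the group, above the limit of 0.71 for 5 samples. In all, 10 gene-by-group sets were searched. The limit would mark about 1 in 20 such sets by chance only where the values had not chosen the libraries. Omp is the gene that chose the sides, so the gap is a description and not a test.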

How the results depend on the processing

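Genes at least 2-fold apart without overlap numbered 181 higher and 13 lower. A filter at a mean of 200 left 62 and 3. The count of lower genes was 6 with a pseudocount of 5, 22 with no filter, 20 after quantile normalization and 20 without female 2 and male 2. Females alone gave 327 and 69, and males alone 662 and 370, where fewer libraries overlap less easily. Without males 2, 4 and 5, a choice made after the data were seen, they were 462 and 90. Leaving out each library in turn gave 149 to 365 higher and 9 to 66 lower genes, the highest of both without female 5; lower genes numbered 24 without female 1, 32 without female 3 and 22 without male 5.

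In the 49 libraries 1220 genes rose and 1071 fell. WT fluoxetine libraries alone gave 606 and 279, vehicle and lithium libraries alone 301 and 30 (301 and 29 of them also called in all 49). Without the WT fluoxetine females the counts were 738 and 435, and without the 2 libraries farthest in Omp (WT fluoxetine females 4 and 3) 740 and 411. Leaving out 1 WT fluoxetine library at a time gave 845 to 1336 rising and 515 to 1245 falling genes; the count of falling genes was 515 without female 4 and 648 without male 2. The quasi-likelihood test of edgeR on recovered reads gave 1253 and 1058. With Cdhr1 in place of Omp 1762 and 1448 genes were called, 722 and 439 of them in both; among the named and list genes, whose slopes alone were followed, 5 reversed: Gng13 to -0.0619, Chl1 to 0.0204, Crym to 0.00957, Rgs14 to 0.0124 and Fam19a1 to 0.00494; the cause was not tested.

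Replicate numbers showed no general pairing of the samples, but the correlations cannot exclude that some were paired. Of 216 same-numbered pairs of libraries 45 correlated above 0.1 (median 0.0131, highest 0.615), and 15 of 49 libraries correlated best with their own number. The median of pairs with different numbers was -0.00347. With the replicate number as a block, 1266 genes rose and 1114 fell.

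Genes with few reads set the limits: 34 of the 16603 passed the mean filter with all 5 low libraries under 10. Under quantile normalization no member of the bulb, cortical or striatal lists changed sign, and the median of all genes moved from 0.01 to -0.01 log2.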
